A study of Mus musculus with 6 samples.

Results

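The genes of the MHC class I molecule were followed here in SL4, a mouse CRC cell line that carries luciferase, with and without SEMA6A overexpression. They were taken by gene symbol from the deposited expression table and comprised the classical heavy chain genes H2-K1 and H2-D1, the non-classical genes H2-Q4, H2-Q6, H2-Q7, H2-T10, H2-T22, H2-T23 and H2-M3, and the light chain gene B2m. These were 10 of 53700 listed genes. RNA-seq had been performed on 3 libraries of pLV-Control cells, labelled as SL4 without SEMA6A overexpression, and on 3 libraries of pLV-SEMA6A cells, in which a lentivirus carrying SEMA6A gave stable overexpression. Neither an agent nor a time point separated the groups. The labels do not say whether the control cells carried a control lentivirus, and the paper names the sequenced control cells both SL4 and pLV-Control. If they carried none, transduction and SEMA6A overexpression cannot be told apart here. Whether the pLV-SEMA6A cells were a pool or 1 clone was not given in the sources used here, nor was whether the libraries of a group came from separate cultures, so that the p-values measure the spread between these libraries, which may be technical.

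A class I molecule consists of a heavy chain, the light chain β2-microglobulin encoded by B2m, and a short peptide cut from a protein of the cell's own interior. The classical molecules H2-K and H2-D occur on nearly every nucleated cell and present such peptides to CD8+ T cells, while they also hold back NK cells that carry inhibitory receptors. Non-classical molecules vary less between mouse strains, and several have a specialised ligand or receptor. Without B2m most heavy chains do not reach the cell surface. Class I genes are known to respond to interferons through a promoter module shared by most of them, and tumour cells that lower class I escape CD8+ T cells in many models.

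The labelled cell type was compared with marker genes. None of 6 epithelial markers reached 1 TPM (a transcript level scaled by transcript length and library size) in any library, and the highest single value was 0.39. Epcam and Cdx2 were at 0 in all 6 libraries, and the summed epithelial markers ranged from 0.13 to 0.45 TPM in pLV-Control and from 0.25 to 0.52 TPM in pLV-SEMA6A cells. Of 4 fibroblast markers all 4 reached 1 TPM in at least 1 library (Col1a2 in only 1), with sums of 5.01 to 6.38 TPM in pLV-Control and 6.96 to 7.96 TPM in pLV-SEMA6A cells. Col1a1 was upregulated, from 1.27 to 3.6 TPM (log2 fold change 1.02, adjusted p = 6.8e-04 from limma). Pdgfra was downregulated, from 1.76 to 0.78 TPM (log2 fold change −0.63, adjusted p = 0.0219 from limma). Its mean over all libraries reached 1 TPM only through the control group. The part of these markers in the class I values was not tested. None of 6 leukocyte markers reached 1 TPM, with a highest value of 0.64 and with Cd3e, Itgam and Adgre1 among those at 0 throughout, and of 2 endothelial markers neither reached it and Cdh5 was at 0. Libraries of a group correlated at 0.967 to 0.978, and libraries of different groups at 0.941 to 0.957 (Pearson's r of log2(TPM + 1) over all tested genes, given as a description). Sema6a was above every pLV-Control library in 3 of 3 pLV-SEMA6A libraries.

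The promoters are shown first, since most class I genes share regulatory elements there. RefSeq start sites on GRCm38.p6 gave a window of 250 bases upstream for 9 of the 10 genes, all but H2-T10. Capitals mark the motifs searched on both strands, printed 5′ to 3′ on the strand of the gene. They are the kappa B consensus bound by NF-κB, the IRF core (AA, any 2 bases, GAAA) bound by interferon regulatory factors, the longer interferon-stimulated response element or ISRE (GAAA, any 2 bases, GAAA), which contains the IRF core, the X2 core TGACG of the element bound by CREB-type factors, and the Y box ATTGG bound by NF-Y. H2-D1 (chr17:35262844-35263093, plus strand) stands for the classical genes, B2m (chr2:122147437-122147686, plus strand) for the light chain, H2-Q4 (chr17:35379367-35379616, plus strand) for the largest decrease among the members, H2-T23 (chr17:36032702-36032951, minus strand) for a gene without the kappa B and X2 letters, and H2-M3 (chr17:37269984-37270233, plus strand) for the smallest decrease among the tested members.
H2-D1: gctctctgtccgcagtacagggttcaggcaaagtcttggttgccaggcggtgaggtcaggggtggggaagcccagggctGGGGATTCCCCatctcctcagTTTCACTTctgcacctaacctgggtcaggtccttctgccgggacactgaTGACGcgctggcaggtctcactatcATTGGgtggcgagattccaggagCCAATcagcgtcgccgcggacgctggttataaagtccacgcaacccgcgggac
B2m: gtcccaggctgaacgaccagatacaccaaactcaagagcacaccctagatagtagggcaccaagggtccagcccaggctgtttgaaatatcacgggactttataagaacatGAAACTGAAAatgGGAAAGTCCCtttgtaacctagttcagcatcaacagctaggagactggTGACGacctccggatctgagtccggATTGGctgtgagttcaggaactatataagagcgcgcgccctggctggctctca
H2-Q4: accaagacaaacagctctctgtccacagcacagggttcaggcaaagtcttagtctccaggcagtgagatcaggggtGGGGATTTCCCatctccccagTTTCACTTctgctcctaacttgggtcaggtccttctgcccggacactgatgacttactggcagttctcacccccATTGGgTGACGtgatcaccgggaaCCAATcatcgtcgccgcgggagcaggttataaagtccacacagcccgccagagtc
H2-T23: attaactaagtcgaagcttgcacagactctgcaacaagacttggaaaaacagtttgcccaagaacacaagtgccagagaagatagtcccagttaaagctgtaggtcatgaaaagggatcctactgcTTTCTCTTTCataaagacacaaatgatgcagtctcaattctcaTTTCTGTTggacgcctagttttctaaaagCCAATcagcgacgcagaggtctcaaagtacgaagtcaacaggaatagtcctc
H2-M3: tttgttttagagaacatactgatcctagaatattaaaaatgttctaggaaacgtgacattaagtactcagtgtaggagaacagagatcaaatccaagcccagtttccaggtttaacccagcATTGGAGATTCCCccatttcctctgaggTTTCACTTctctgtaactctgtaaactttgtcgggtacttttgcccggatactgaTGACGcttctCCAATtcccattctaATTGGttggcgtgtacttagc

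The IRF core was found in all 9 windows and in 21.3% of all 32851 RefSeq promoter windows of this length, and the Y box was found in all 9 and in 33.8% of all windows. A kappa B match occurred in 8 of 9, all but H2-T23, and in 7.25% of all windows. The X2 core occurred in 7 of 9, all but H2-Q6 and H2-T23, and in 17.8% of all windows. The ISRE letters searched here, a strict form, were the rarest of the motifs, at 2.98% of all windows. They occurred in 3 of 9 members, B2m, H2-T22 and H2-T23. A window without these letters, such as that of H2-K1 or H2-D1, was not shown to lack a response element. In H2-K1, H2-D1, B2m and H2-M3 the X2 core began 25 bases before a Y box, and in H2-Q7 it began 24 bases before one. In H2-Q4 and H2-T22 the X2 letters followed every Y box of the same strand instead, and in H2-M3 a Y box overlapped the kappa B match. For H2-K1, which has windows at 2 start sites, the first listed was searched. A match of letters is a description of the window and not a bound site, and no binding data were analysed here.

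Of the members, those above trace levels were lower with SEMA6A overexpression, namely the classical pair, H2-Q4, H2-T22, H2-T23, H2-M3 and B2m. A filter kept genes whose mean over the 6 libraries was 1 TPM or more, and 7 of the 10 genes passed it. Among these, H2-Q4 was above 1 TPM in pLV-Control libraries only, so that its being lower was built into its passing the filter. All 7 were downregulated DEGs (adjusted p below 0.05 and a log2 fold change beyond 0.5 in size, on the log2(TPM + 1) scale), whereas 10.8% of the 12510 tested genes were downregulated and 5.12% upregulated. With each library centred on its median, the split over all tested genes was 7.68% downregulated (961 genes) and 8.01% upregulated (1002 genes), and the 7 members were still downregulated. In these 7 genes every pLV-SEMA6A library lay below every pLV-Control library, which held for 34.7% of tested genes. The remaining 3 genes, H2-Q6, H2-Q7 and H2-T10, were listed below 1 TPM in every library. In bulk RNA, fewer cells that express a gene and less RNA per cell cannot be told apart. The plot of all 10 genes by library shows the gaps between groups against the narrow spread within them.

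**Figure D1:**
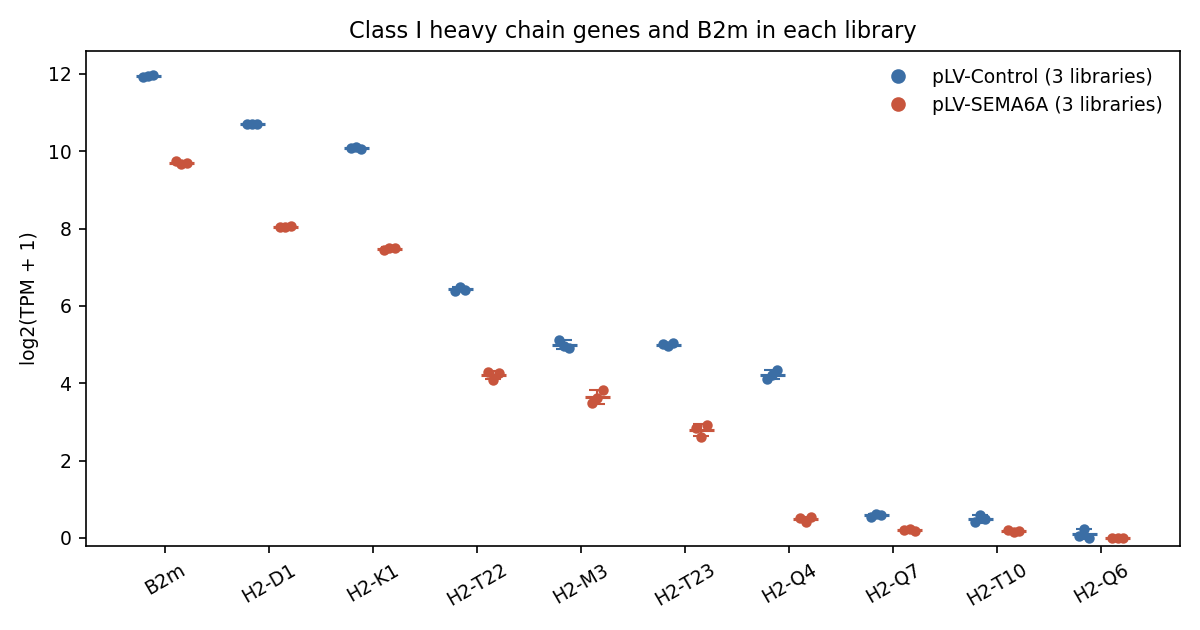
Level of each class I heavy chain gene and of B2m as log2(TPM + 1) on the vertical axis, with 1 point per library, a horizontal bar for the mean and whiskers for the SD (n = 3 per group), and genes ordered by their mean in pLV-Control. The groups are separated in every gene except H2-Q6, and H2-Q7, H2-T10 and H2-Q6 lie near 0.

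H2-K1 encodes the classical heavy chain H2-K, which presents peptides to CD8+ T cells. Its level was 1088, 1095 and 1069.6 TPM in pLV-Control replicates 1, 2 and 3, and 172, 179.55 and 181 TPM in pLV-SEMA6A replicates 1, 2 and 3. All control libraries were far above all SEMA6A libraries, and the libraries of a group lay close together. H2-K1 fell by 2.61 on the log2 scale (standard error 0.03, 95% interval −2.67 to −2.54, adjusted p = 4.2e-08 from limma), which was a 6.11-fold lower mean TPM.

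H2-D1, the other classical heavy chain gene, was the more abundant of the pair in each library. Control cells had 1658, 1678 and 1670.4 TPM of it, and pLV-SEMA6A cells 262, 264 and 268 TPM. The groups did not overlap, and the 6.31-fold lower mean gave a log2 fold change of −2.65 (standard error 0.02, 95% interval −2.70 to −2.61, adjusted p = 8.3e-09 from limma). By size of decrease, H2-D1 ranked 34 and H2-K1 ranked 37 among the 12510 tested genes. By level, H2-D1 went from rank 94 to rank 514 among listed genes and H2-K1 from rank 136 to rank 788.

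B2m encodes the light chain that nearly all class I heavy chains need for folding, and it lies on chromosome 2, apart from the heavy chain genes of the H2 region on chromosome 17. It was the most abundant of the 10 genes in every library, at 3885, 3958 and 4041 TPM in pLV-Control and 854, 820.5 and 828 TPM in pLV-SEMA6A cells. Each SEMA6A library was far below each control library. B2m fell by 2.25 (standard error 0.02, 95% interval −2.30 to −2.19, adjusted p = 4.2e-08 from limma), a 4.75-fold lower mean, and went from rank 23 to rank 179 by level. None of its 31-base transcript stretches occurs in another GENCODE M21 gene, so that reads of B2m are not shared with the heavy chain genes.

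Among the non-classical genes, H2-T22 encodes a heavy chain that needs no peptide and is recognised by γδ T cells. Control cells held 83.0, 88.8 and 83.6 TPM of it, and pLV-SEMA6A cells 18.5, 15.9 and 18.3 TPM, with no overlap. It fell by 2.22 (standard error 0.07, limma adjusted p = 3.1e-06), a 4.84-fold lower mean. Because 67.4% of its 31-base stretches occur in other genes, 47.2% in H2-T10 and 27.7% in A930015D03Rik, the division of reads between these genes is uncertain.

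H2-T23 encodes the heavy chain of Qa-1, which presents a leader peptide of classical class I molecules to the CD94/NKG2A receptor of NK cells and CD8+ T cells. Its level was 31.04, 29.9 and 31.8 TPM in pLV-Control and 6.2, 5.11 and 6.52 TPM in pLV-SEMA6A cells. No library of one group reached the other, and H2-T23 fell by 2.21 (standard error 0.09, adjusted p = 9.6e-06 from limma), a 5.2-fold lower mean. Other genes held 25.8% of its stretches, mainly the pseudogene H2-T-ps with 12.4%, which was at most at trace levels. H2-K1 held 5.07% and H2-D1 5.17% of them, and both were far more abundant than H2-T23. How reads were divided among these genes is uncertain.

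H2-M3 encodes a heavy chain that binds N-formylated peptides, such as those of bacteria and mitochondria. In pLV-Control cells it was at 33.96, 30.02 and 29.1 TPM, and in pLV-SEMA6A cells it was at 10.25, 11.2 and 13.2 TPM. The groups were apart, but the decrease was the smallest of the 7 tested genes, with a log2 fold change of −1.35 (standard error 0.10, 95% interval −1.60 to −1.11, adjusted p = 1.1e-04 from limma) and a 2.69-fold lower mean. H2-M3 shares only 4.62% of its stretches with other genes. It ranked 222 by size of decrease on the log2(TPM + 1) scale, whereas H2-T22 ranked 64 and H2-T23 ranked 65. With a pseudocount of 0.1 TPM the log2 fold change was −1.42 for H2-M3, −2.27 for H2-T22 and −2.37 for H2-T23.

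H2-Q4, a Qa-2 region gene whose product resembles classical heavy chains, had 16.4, 17.6 and 19.3 TPM in control cells, and only 0.42, 0.34 and 0.45 TPM remained in pLV-SEMA6A cells. It therefore passed the filter only through the control group. The listed means differed 44-fold, and the log2 fold change on the log2(TPM + 1) scale was −3.74 (standard error of 0.10, limma adjusted p = 2.0e-06), the fourth largest decrease among tested genes. With a pseudocount of 0.1 in place of 1 TPM its log2 fold change was −5.15. H2-Q4 shares 53% of its stretches with other genes, 19.5% with H2-Q6 and 16.8% with Gm11131. It shares 7.13% with H2-K1 and 7.63% with H2-D1, both far more abundant. How reads were divided among these genes is uncertain.

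Near the lower end, H2-Q7, which encodes the Qa-2 antigen, had 0.45, 0.53 and 0.51 TPM in control cells and 0.15, 0.17 and 0.13 TPM in pLV-SEMA6A cells. H2-T10, a close relative of H2-T22, had 0.32, 0.51 and 0.4 TPM in control cells and 0.15, 0.11 and 0.14 TPM in pLV-SEMA6A cells. In both genes the SEMA6A libraries lay below the control libraries, which held for 5134 of the 24518 genes listed above 0 in at least 1 library. H2-Q6, another Qa-2 gene, had 0.03, 0.18 and 0 TPM in control cells and was listed at 0 in all pLV-SEMA6A libraries, so that the groups overlapped at 0. When all 24518 genes listed above 0 were fitted, the log2 fold changes were −0.38 for H2-Q7 (adjusted p = 0.00389), −0.31 for H2-T10 (adjusted p = 0.0185) and −0.094 for H2-Q6 (adjusted p = 0.424, all from limma). None of the 3 genes reached the minimum fold change. At such levels the added 1 TPM leaves little or no room for a decrease of 0.5, so that this fit cannot decide the size of their change. The listed means were 3.31-fold lower for H2-Q7 and 3.07-fold lower for H2-T10. H2-T10 shares 64.2% and H2-Q7 39.2% of their stretches with other genes.

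The order of the levels was B2m, H2-D1, H2-K1 and H2-T22 in both groups, each clear of its neighbour in every library. In pLV-Control cells H2-M3 and H2-T23 came next and did not differ beyond their spread (31 ± 2.59 and 30.9 ± 0.945 TPM, SD, n = 3). In pLV-SEMA6A cells they were apart, at 11.6 ± 1.52 and 5.94 ± 0.739 TPM (SD, n = 3). H2-Q7 and H2-T10 overlapped in both groups.

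**Figure D2:**
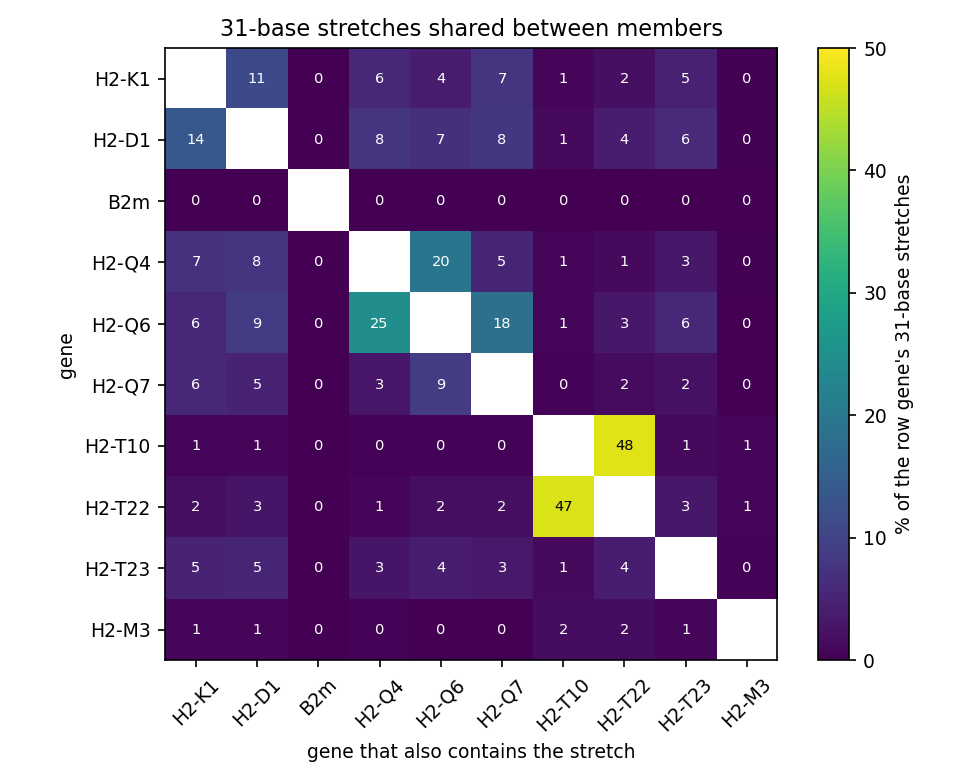
Share of each row gene's 31-base transcript stretches that also occur in the column gene, in percent, over GENCODE M21 transcripts. H2-T10 and H2-T22 share 47.2% to 47.6% of their stretches, H2-K1 and H2-D1 share 11.1% to 13.8%, and B2m shares none.

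Whether the classical and non-classical genes and the light chain kept their proportions was compared within libraries, as log2 ratios of TPM and as a share. Summed over the 9 heavy chain genes, TPM was 2911, 2941 and 2905 in pLV-Control and 469, 476 and 488 in pLV-SEMA6A cells, a 6.11-fold lower mean. The sum was held mainly by the classical pair. H2-K1 accounted for 37.1% of it in both groups, and H2-D1 for 57.2% in pLV-Control and 55.4% in pLV-SEMA6A cells.

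The log2 ratio of H2-D1 to H2-K1 was 0.607, 0.615 and 0.643 in pLV-Control and 0.607, 0.556 and 0.569 in pLV-SEMA6A cells. The highest SEMA6A library thus stood at the level of the lowest control library, and the difference was −0.0447 (exact permutation p = 0.1, two-sided, which is the smallest value that 3 against 3 libraries can give). In linear terms H2-D1 was 1.54 times H2-K1 in pLV-Control and 1.49 times in pLV-SEMA6A cells. The classical pair held 94.3% of the heavy chain sum in each control library and 92.4%, 93.1% and 92% in the SEMA6A libraries, a difference of −1.8 percentage points (exact permutation p = 0.1).

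B2m was set against its heavy chain partners. Its log2 ratio to the heavy chain sum was 0.417, 0.428 and 0.476 in pLV-Control and 0.864, 0.785 and 0.765 in pLV-SEMA6A cells, without overlap. The difference of 0.364 corresponded to 1.36 TPM of B2m per TPM of heavy chain in pLV-Control and 1.75 in pLV-SEMA6A cells (exact permutation p = 0.1). Adjusted over these 3 comparisons, each p was 0.1, and none could pass 0.05 at this number of libraries.

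Each tested non-classical gene was also set against the summed classical genes, a comparison chosen after the values were seen. The log2 ratio of H2-M3 to the classical sum was −6.34, −6.53 and −6.56 in pLV-Control and −5.40, −5.31 and −5.09 in pLV-SEMA6A cells, a difference of 1.21 without overlap. H2-M3 made up a larger part of the heavy chain sum in pLV-SEMA6A cells, 2.42% against 1.06%. H2-T22 differed by 0.36, again without overlap, whereas H2-T23 differed by 0.25 and its groups overlapped. The ratio of H2-Q4 moved the other way, by −2.83, from −7.39, −7.30 and −7.15 to −10.01, −10.35 and −9.96. Its pLV-SEMA6A values rest on levels of 0.42, 0.34 and 0.45 TPM, taken without a pseudocount. How reads were divided between H2-Q4 and the classical genes is uncertain. The exact permutation p was 0.1 for H2-M3, H2-T22 and H2-Q4 and 0.2 for H2-T23 (0.125 and 0.2 after adjustment over 5 comparisons, B2m included, whose ratio to the classical sum differed by 0.39 with p = 0.1). In pLV-SEMA6A cells the mean ratio to the classical sum was thus higher for 3 of the 4 non-classical genes and lower for H2-Q4, though no p could pass 0.05.

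**Figure D3:**
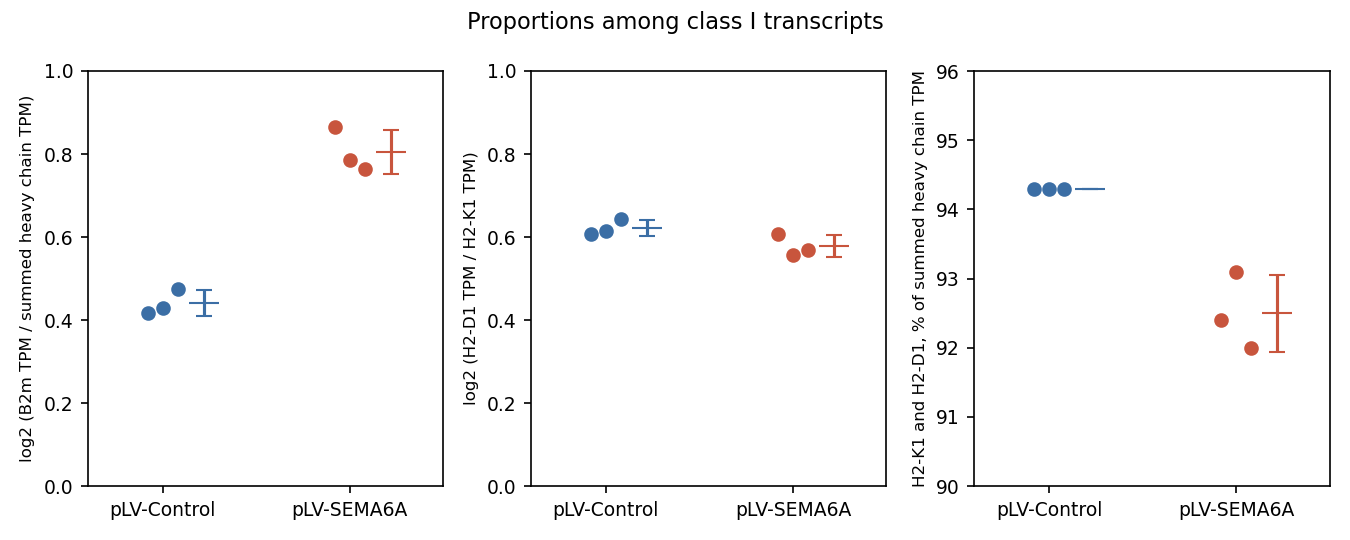
Proportions among class I transcripts in each library, as the log2 ratio of B2m to the summed heavy chain TPM (left), the log2 ratio of H2-D1 to H2-K1 (middle) and the share of H2-K1 and H2-D1 in the heavy chain sum in percent (right, with an axis that does not start at 0), with points for libraries and bars for the mean and SD (n = 3). The B2m ratio is 0.44 in pLV-Control and 0.804 in pLV-SEMA6A cells, while the H2-D1 to H2-K1 ratio is 0.622 and 0.577.

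The table lists 23 further class I genes of the H2 region, of which 10 were at 0 in all libraries and 4 passed the filter. Of these 3 were downregulated (75%, against 10.8% of all tested genes), and 2 in the 4 fits named for H2-Q10 and with a filter of 5 TPM. H2-K2, a gene near H2-K1, was at 8.85, 7.38 and 8.97 TPM in pLV-Control and 2.11, 1.82 and 1.77 TPM in pLV-SEMA6A cells and was downregulated (log2 fold change −1.69, adjusted p = 6.2e-05 from limma). H2-M10.1, of a gene family known from vomeronasal neurons, was downregulated too, from 18.9, 19.5 and 18.2 TPM to 9.3, 8.58 and 8.11 TPM (log2 fold change −1.04, adjusted p = 5.7e-05 from limma). In contrast, H2-T24 was at 14.8, 16.2 and 16.4 TPM in pLV-Control and 14.96, 13.97 and 14.3 TPM in pLV-SEMA6A cells, and the groups overlapped. It was not a DEG, with a log2 fold change of −0.13 (95% interval −0.27 to 0.02, adjusted p = 0.134 from limma). H2-T24 lies next to H2-T23 in the order of tested genes, and 6.61% of its stretches occur elsewhere. Other genes hold 16.6% of the stretches of H2-K2, with 8.21% in H2-D1, and 18.7% of those of H2-M10.1. How reads were divided among these genes is uncertain.

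H2-Q10, which encodes a secreted class I protein known from liver, was called downregulated but varied widely, with 3.16, 1.03 and 4.13 TPM in pLV-Control and 0.88, 0.06 and 0.1 TPM in pLV-SEMA6A cells (log2 fold change −1.43, standard error 0.41, adjusted p = 0.0272 from limma). It passed the filter only through the control group, and with a pseudocount of 0.1 TPM its log2 fold change was −2.99. The call was lost without pLV-Control replicate 1 (adjusted p = 0.0803), pLV-Control replicate 3 (0.0831), pLV-SEMA6A replicate 2 (0.0769) or pLV-SEMA6A replicate 3 (0.0789), and without a filter (0.0611), each from limma. Its stretches are shared at 30.3%, mostly with H2-Q7 (21.9%).

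**Figure D4:**
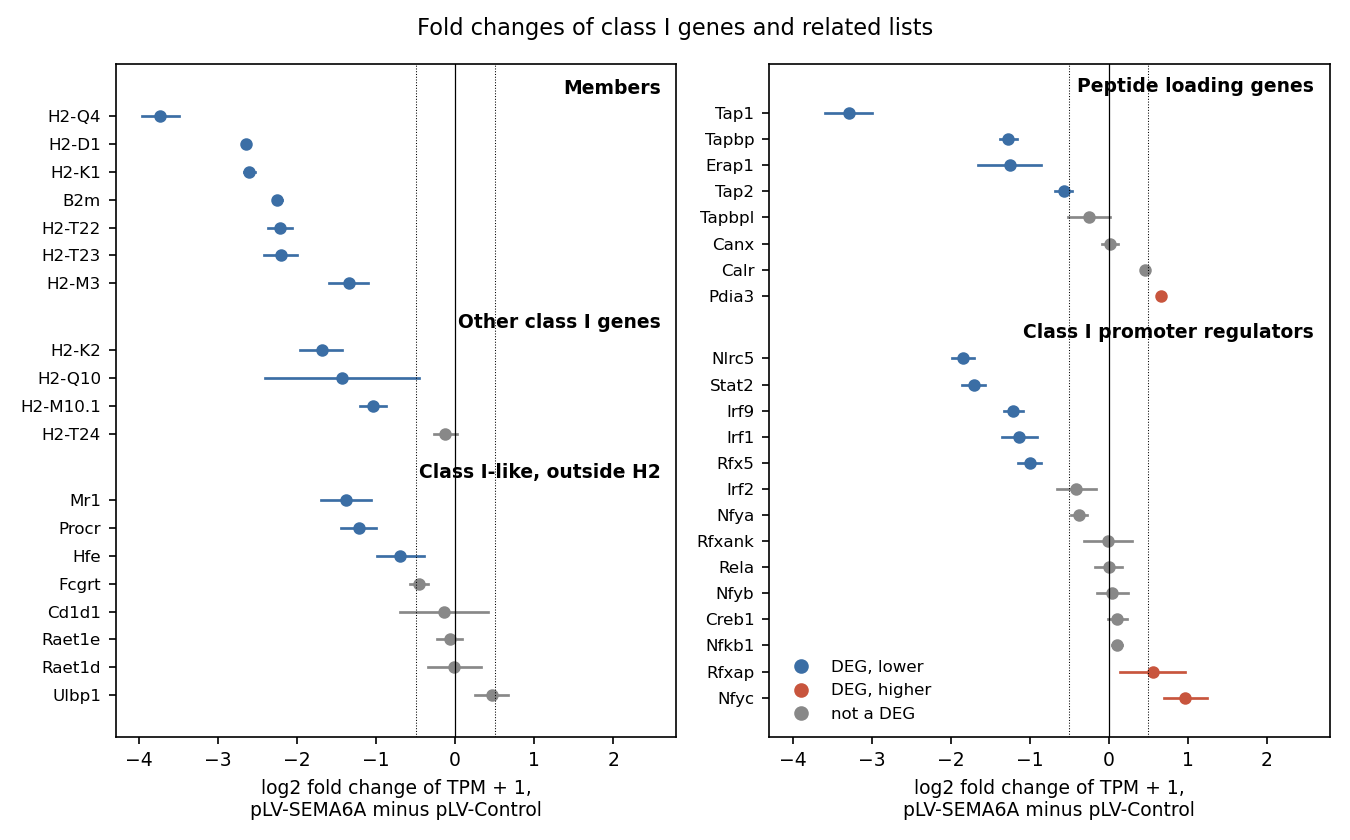
Log2 fold change of TPM + 1, pLV-SEMA6A minus pLV-Control, for the tested members and for tested genes of 4 lists, with 1 regulator not drawn, and with lines for the 95% interval and dotted lines at −0.5 and 0.5. All tested members are at −1.35 or lower, while H2-T24 is at −0.13 and the other lists spread on both sides of 0.

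Class I-like genes outside the H2 region encode relatives of the heavy chain fold, and 12 of 16 genes chosen for this list were in the table. Of the 8 that passed the filter, 3 were downregulated (37.5%, against 10.8% of all tested genes) and none was upregulated, and the median log2 fold change was −0.30 against −0.064 over all tested genes. Mr1, which presents vitamin B metabolites to MAIT cells, was at 18.0, 14.8 and 17.1 TPM in pLV-Control and 5.33, 7.08 and 5.01 TPM in pLV-SEMA6A cells (log2 fold change −1.38, adjusted p = 3.2e-04 from limma). Procr, the endothelial protein C receptor, fell by 1.22, from 32.4 ± 2.74 to 13.3 ± 1.44 TPM (SD, n = 3, adjusted p = 1.2e-04 from limma). Hfe, which regulates iron uptake, fell by 0.70, from 3.71 to 1.91 TPM.

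The list also held ligands of the activating receptor NKG2D, of which H60b was at 0 and H60c below the filter. Raet1d was at 3.87 ± 0.462 and 3.86 ± 0.704 TPM and Raet1e at 16.8 ± 0.194 and 16 ± 1.28 TPM in pLV-Control and pLV-SEMA6A cells (SD, n = 3), and neither was a DEG (adjusted p = 0.959 and 0.427 from limma). Ulbp1 was at 11.7 ± 0.938 and 16.5 ± 1.54 TPM, with a log2 fold change of 0.46 that lay just under the minimum of 0.5 (adjusted p = 0.00556 from limma). It passed that minimum without pLV-Control replicate 2 (0.51) and without pLV-SEMA6A replicate 2 (0.50). Fcgrt, the neonatal Fc receptor that also pairs with β2-microglobulin, was at 39.9 and 28.7 TPM, with a log2 fold change of −0.46 that was likewise under the minimum. Cd1d1, which presents lipids to NKT cells, was at 1.19 and 0.993 TPM and was not a DEG (adjusted p = 0.639 from limma).

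Heavy chains are loaded with peptide in the endoplasmic reticulum, and the list of 8 loading genes was split. Of these 8 genes 4 were downregulated (50%, against 10.8% of all tested genes) and 1 was upregulated (12.5%, against 5.12%), and their median log2 fold change was −0.41 against −0.064. After median centring 3 were downregulated (37.5%, against 7.68% of all tested genes) and 2 upregulated (25%, against 8.01%). Tap1, a subunit of the transporter that brings peptides into this compartment, was at 46.0, 49.0 and 46.2 TPM in pLV-Control and 3.11, 4.76 and 3.96 TPM in pLV-SEMA6A cells. Its 11.9-fold lower mean was a log2 fold change of −3.29, while its partner subunit Tap2 fell by 0.57, from 34.6 to 23.1 TPM.

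Tapbp, which encodes tapasin, the bridge between the transporter and the empty heavy chain, fell by 1.27, from 70.5 ± 3.62 to 28.5 ± 0.28 TPM (SD, n = 3). Erap1, which trims peptides to their final length, fell by 1.25, from 17.7 to 6.85 TPM (adjusted p = 0.0012 from limma). The general chaperones of the list follow. Pdia3, a disulfide isomerase of the loading complex, rose by 0.66, from 372, 381 and 372 TPM to 589.8, 584 and 601 TPM. Calr, the chaperone calreticulin, was at 789 and 1086 TPM and under the minimum fold change (0.46), and Canx, the chaperone calnexin, was at 594 ± 31.9 and 603 ± 15.3 TPM. Tapbpl, a tapasin relative that edits peptides, was at 4.21 and 3.39 TPM and was not a DEG (adjusted p = 0.114 from limma). After each library was centred on its median, Tap2 was at −0.48 and no longer a DEG, while Calr and Ulbp1, both at 0.55, became upregulated DEGs.

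Of 15 genes that encode regulators known to act at class I promoters, 6 were downregulated (40%, against 10.8% of all tested genes) and 2 upregulated (13.3%, against 5.12%), with a median log2 fold change of −0.38 against −0.064. The upregulated count was 1 in 6 of the alternatives, in which Rfxap was not called. Nlrc5, the transactivator of class I genes, was at 38.1, 34 and 35.2 TPM in pLV-Control and 8.99, 9.30 and 9.43 TPM in pLV-SEMA6A cells, and fell by 1.84. Rfx5, a subunit of the RFX factor through which the transactivator is recruited, fell by 1.00, from 18.0 ± 0.48 to 8.48 ± 0.527 TPM (SD, n = 3). The interferon signalling genes Stat2 and Irf9 fell by 1.71 and 1.21, and Irf1, a transcription factor that binds the IRF core, fell by 1.13.

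The 2 upregulated regulators were Nfyc, a subunit of the Y box factor NF-Y, and Rfxap, another RFX subunit. Nfyc rose by 0.97, from 19.6 ± 2.75 to 39.3 ± 4.11 TPM (SD, n = 3), while the other subunits of NF-Y, Nfya at −0.38 and Nfyb at 0.044, were not DEGs. Rfxap was at 18.2, 23.8 and 22.3 TPM in pLV-Control and 25.1, 39.3 and 32.7 TPM in pLV-SEMA6A cells (log2 fold change 0.56, adjusted p = 0.0358 from limma). That call was lost without pLV-Control replicate 1 (adjusted p = 0.101 from limma) or 3 (0.0726) and without pLV-SEMA6A replicate 2 (0.0836) or 3 (0.0931), without a filter (0.0852), and with limma run without trend (0.0552). Rela and Nfkb1, which encode NF-κB subunits, had log2 fold changes of 0.00038 and 0.11 and were not DEGs. These levels stand beside those of the class I genes, and the part of any regulator in them was not tested.

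Between the outermost class I members on chromosome 17, the annotation places 263 listed genes without a class I symbol, of which 73 were tested. They gave a comparison of the class I genes with their neighbours. Class I-like loci under other names may be among them, since A930015D03Rik, a tested neighbour, holds 27.7% of the 31-base stretches of H2-T22. Of these neighbours 13 were downregulated (17.8%, against 10.8% of all tested genes) and 2 upregulated (2.74%, against 5.12%), with a median log2 fold change of −0.13 against −0.064. After median centring 10 were downregulated (13.7%, against 7.68% of all tested genes) and 3 upregulated (4.11%, against 8.01%). The largest decreases among the downregulated neighbours were those of Tap1, of Psmb9, from 14.4, 11.9 and 11.9 TPM to 0.66, 0.38 and 0.37 TPM (log2 fold change −3.23), and of Psmb8, from 7.81, 7.31 and 9.28 TPM to 1.00, 0.32 and 0.42 TPM (−2.55). Psmb9 and Psmb8 encode subunits of the immunoproteasome. Both passed the filter only through the control group, and with a pseudocount of 0.1 TPM their log2 fold changes were −4.53 and −3.72.

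Zfp57, a zinc finger gene of imprinting control near H2-M3, fell by 1.10, from 44.9 to 20.4 TPM. H2-Ke6, which carries an H2 name but encodes a steroid dehydrogenase, fell by 0.93, and H2-DMb1, a chain of the class II peptide exchange factor, fell by 0.91. Gm20427 fell by 0.96 and Neu1, a lysosomal sialidase, by 0.76. The upregulated neighbours were Abhd16a, a lipase gene (0.61), and Ddx39b, an RNA helicase gene (0.56).

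**Figure D5:**
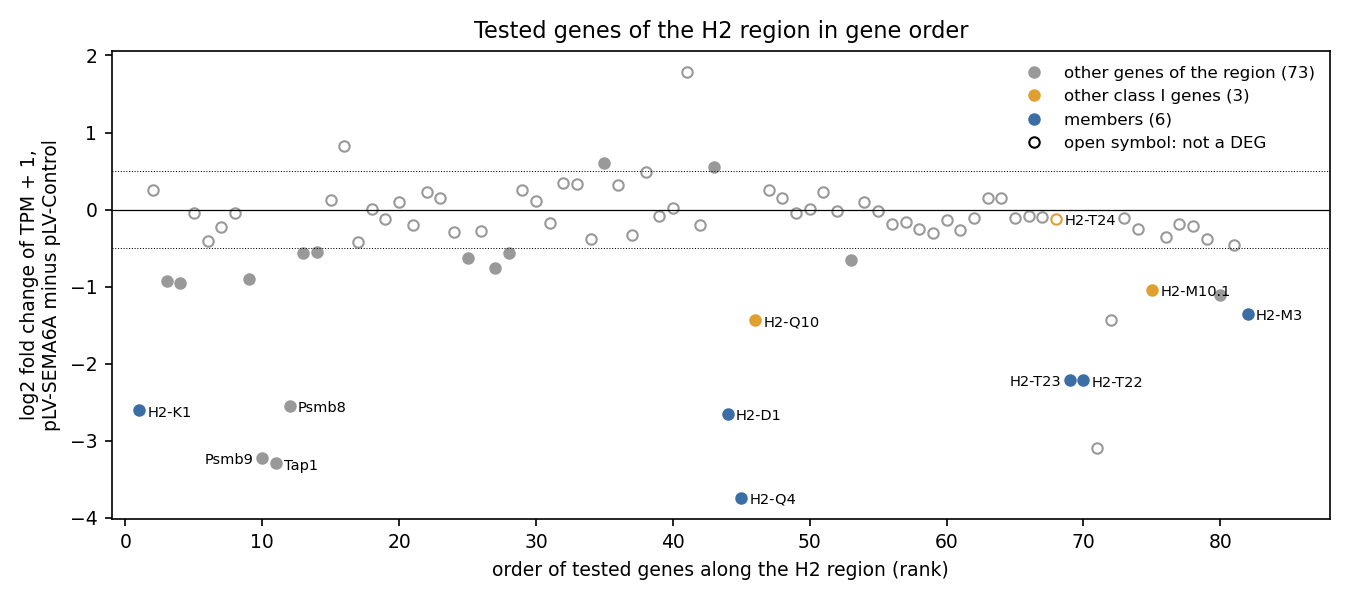
Log2 fold change of TPM + 1, pLV-SEMA6A minus pLV-Control, of the 82 tested genes from H2-K1 to H2-M3 in the order of the annotation, with filled symbols for DEGs and dotted lines at −0.5 and 0.5. The 6 members, from −1.35 to −3.74, stand among 73 neighbours with a median of −0.13.

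The genes with the profile most like that of H2-D1, B2m and H2-T23 over the 6 libraries were found by the root mean square difference of log2(TPM + 1) after the mean of each gene was removed. Closest to H2-D1 was Bst2, the membrane tether of budding virus, with a difference of 0.0474 and levels of 1086 and 177 TPM, followed by Ifit3 (0.0822), Ifi206 (0.098), Gbp9 (0.108) and Gm14620 (0.109). Closest to B2m was Rtp4 (0.0234), with 130.0 and 26.8 TPM, followed by Gbp3 (0.0429), Usp18 (0.043), Gm4951 (0.056) and Rps24-ps3 (0.0652). For H2-T23 the order was Iigp1 (0.07), Gbp3 (0.0764), Rtp4 (0.0859), Zbp1 (0.0935) and Clec2d (0.095), the last of which encodes a ligand of an inhibitory NK cell receptor. Gm14620 and Rps24-ps3 were listed at 0 in all pLV-SEMA6A libraries, and the means of Ifi206, Gbp9 and Gm4951 there were below 1 TPM, so that these 5 likenesses depend on the pseudocount. At a pseudocount of 0.1 TPM the log2 fold change was −3.42 for Ifi206, −3.70 for Gbp9 and −5.73 for Gm14620, against −2.66 for H2-D1, and −3.48 for Gm4951 and −5.13 for Rps24-ps3, against −2.25 for B2m. With 2 groups of 3, the measure mostly reflects an equal difference between groups and is given as a description.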

How the data were processed

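Poly-A mRNA of SL4 cells was sequenced with Illumina chemistry. The values deposited by the authors are TPM per gene for 3 pLV-Control and 3 pLV-SEMA6A libraries, together with group means that were not used. Processing notes of the submitters name Bowtie2, HISAT, RSEM and mm39, without roles or versions. TPM keeps no depth, so that no interval or detection limit from counts was given, and a listed 0 can be a failed estimate. Deposited TPM summed to between 977400.0 and 986444.5 per library over the listed genes.

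Each member symbol named 1 gene identifier. log2(TPM + 1) was fitted with limma 3.58.1 (trend option) in R 4.3.3, with group as sole factor, for the 12510 genes whose mean reached 1 TPM, with Benjamini-Hochberg adjustment over all of them. The thresholds for DEGs (0.05 for the adjusted p and 0.5 for the size of the log2 fold change) follow the study's supplement. The supplement names DESeq2 for the authors' own comparison, which needs counts and was not run on TPM. Tested on simulated data, the fit over 12510 genes recovered 82% of 200 genes with a true log2 change of 1, with 1.8% false calls. Ratios were compared by exact permutation tests over libraries, two-sided, with scipy 1.17.1. Shared 31-base stretches were counted over GENCODE M21 transcripts. Promoter windows and gene order come from GRCm38 references, not from the submitters' build, and no coordinates were converted. Protein sequences were not analysed here. Values of 2 genes of the lists are not reported here, and the counts over the lists include them.

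The members and gene lists were chosen with earlier results of these data known. Named were the 10 members, the other class I genes that passed the filter, DEGs of the lists (up to 8 per list by size), all tested genes of lists with 9 or fewer, and the 5 genes most like H2-D1, B2m and H2-T23. Nfya, Nfyb, Rela, Nfkb1, Abhd16a and Ddx39b were named beyond this rule, after their values were seen. Alternatives were a pseudocount of 0.1 TPM, no filter and a filter of 5 TPM, median centring, and limma without trend. Further alternatives were no minimum fold change and a minimum of 1, a replicate block, leaving out each library in turn, and summing the identifiers of a symbol. For the proportions that use the heavy chain sum, all listed class I heavy chain genes were also summed.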

Additional observations from a re-analysis of the deposited data

How the results depend on the processing

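All 7 tested members remained downregulated under each of 15 alternatives, with ranges of −2.62 to −2.51 for H2-K1, −2.66 to −2.56 for H2-D1, −2.26 to −2.15 for B2m, −5.15 to −3.64 for H2-Q4, −2.27 to −2.12 for H2-T22, −2.37 to −2.11 for H2-T23 and −1.45 to −1.26 for H2-M3. Centring each library on its median removed a general difference of −0.0932 on the log2 scale. Without a minimum fold change, 27 neighbours of the H2 region were downregulated and 5959 genes were called among all tested genes. With a minimum of 1 these numbers were 4 and 385, against 13 and 1987 with the minimum of 0.5. These follow from the construction of the criterion. Signs turned for log2 fold changes near 0, in no DEG. Cd1d1 was 0.037 without pLV-SEMA6A replicate 2 and −0.26 without replicate 3, Raet1d was 0.083 after centring, 0.061 without pLV-Control replicate 3 and 0.11 without pLV-SEMA6A replicate 2, against −0.10 without pLV-SEMA6A replicate 3, Raet1e was 0.025 after centring, and Canx was −0.015 without pLV-Control replicate 1.

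Leaving out each library in turn gave 7 members, 4 non-classical members, 3 class I-like genes, 4 peptide loading genes and 6 promoter regulators downregulated in every fit, 2 to 3 other class I genes, 12 to 15 neighbours of the H2 region and 1900 to 1975 called genes in all. The difference in log2 ratio ranged from −0.0593 to −0.034 for H2-D1 to H2-K1 and from 0.334 to 0.384 for B2m to the heavy chain sum, and that of the classical share from −2.1 to −1.56 percentage points.

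No pairing of the libraries by the replicate numbers of the labels was seen. Deviations of same-numbered libraries correlated at −0.08 to −0.023 and those of other numbers at −0.01 to 0.079, so that no library correlated best with its own number. Deviations from a mean of 3 libraries depend on one another, so that these values cannot decide whether libraries shared a culture or batch. With a replicate block 1924 genes were called in all and the 7 members were still downregulated, and in pairs the ratios had an exact permutation p of 0.25, the smallest that 3 pairs allow. Depth could not be read from TPM, so that the precision of values under 1 TPM is unknown.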

Other observations

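Among the class I genes of the H2 region below the filter, H2-Q5 had 1.3, 0.95 and 1.05 TPM in control cells and 0.2, 0.33 and 0.34 TPM in pLV-SEMA6A cells, without overlap. It was named after its values were seen, and 57.8% of its 31-base stretches occur in other genes, 43.2% in H2-Q7. H2-M10.4 was at a mean of 0.6 ± 0.12 TPM and 0.32 ± 0.282 TPM (SD, n = 3), with overlap.

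Next to H2-T22 in the gene order, the unnamed gene model Gm6034 had 30.5, 16.03 and 0.17 TPM in control cells and was listed at 0 in all pLV-SEMA6A libraries, and it was not a DEG (adjusted p = 0.0664 from limma). In pLV-SEMA6A replicate 1 Gm23442 had 39.9 TPM, while the other libraries listed 0. Both were named after their values were seen.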
